A study of Danio rerio with 4 samples.

Results

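The 6 dpw wound, the latest wound stage collected, was compared with unwounded skin of adult zebrafish to find which cell classes and genes had not returned to the unwounded level. All cells with 500 to 30000 unique molecular identifiers (UMIs), 200 to 4500 genes and less than 25% mitochondrial UMIs were taken from these libraries, which gave 14116 cells, 8314 from the wound at 6 days post wounding (dpw) and 5802 from unwounded skin, of 29185 such cells in all 4 libraries. The fish were wild type adults, of the Tüpfel long fin (TL) and Ekkwill (EK) strains by the study's methods. The wound library came from full-thickness laser wounds cut out with a biopsy punch of 4 mm, whereas the unwounded library came from untreated skin that was scraped off, so the way of sampling cannot be told apart from wounding. Each library holds the pooled cells of 3 fish and each condition is 1 library, so no test between the conditions could be run. The intervals given with ratios cover counting error only, at 95%, and the spread between fish is unknown.

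Zebrafish skin consists of a layered epidermis with keratinocytes, mucous cells and resident immune cells, over a dermis in which fibroblasts and scale-forming cells make a collagen-rich matrix and mineralized scales. After a wound has been closed by epidermis, fibroblasts, macrophages and new vessels build a granulation tissue beneath it, which later regresses in fish without leaving a permanent scar. Return to the unwounded state therefore involves both the makeup of the tissue and the programme of each cell class, and both were measured here.

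The 6 dpw library had 56867519 UMIs and the unwounded library 43307637 UMIs in the cells taken, with medians of 3979 and 4120 UMIs per cell, and 12 cell barcodes were shared between them. Cells were clustered and each cluster was named from marker genes, so the classes are keratinocyte-like, fibroblast-like and so on, and the ending is left out below. Levels are given in CPM, the UMI counts of a gene scaled to 1000000 UMIs of the library or of a cell class. A gene was counted as measured when it had at least 100 UMIs in either library, and as differing when its CPM at 6 dpw was at least 2 times, or at most 0.5 times, that of unwounded skin. Within a class, the class also had to hold the gene at or above its level in the whole library. This was asked only in the library where the gene was higher in the class, so a gene could pass through either library alone. The filter limits but does not remove free RNA from other cells. Transcripts of skeletal muscle were present in the 6 dpw library and nearly absent from unwounded skin, and their values are given at the end.

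Most genes were within 2-fold of the unwounded level at 6 dpw. In the whole tissue, 1066 of 12117 measured genes were at least 2-fold higher (8.80%) and 674 were at least 2-fold lower (5.56%), and 85.6% lay between. The share of genes past 2-fold differed between the cell classes. Fibroblasts had the largest share of differing genes among the classes with over 1000 measured genes, with 441 of 4021 higher (11.0%) and 326 lower (8.11%). T and natural killer (NK) lymphocytes had the smallest, with 11 of 3114 genes higher (0.353%) and 78 lower (2.50%), so that 97.1% were within 2-fold. Keratinocytes had 59 of 3314 genes higher (1.78%) and 162 lower (4.89%). Macrophages had 74 of 2247 higher (3.29%) and 91 lower (4.05%), and mucous cells 39 of 1719 higher (2.27%) and 48 lower (2.79%). In neutrophils 241 genes were measured, of which 27 were higher (11.2%) and 16 lower (6.64%), and in red blood cells 102, of which 10 were higher (9.80%) and 4 lower (3.92%). The number of measured genes follows the number of cells and their UMIs, so these shares were not compared between classes by a test. Fibroblasts had 13745400 UMIs at 6 dpw and 4554140 in unwounded skin, so genes of lower CPM could reach the minimum of UMIs at 6 dpw. With smaller minimums, given in the last section, more fibroblast genes were lower than higher. The balance of higher and lower genes in fibroblasts thus depended on the minimum.

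The makeup of the 6 dpw library also differed from that of unwounded skin. The wound was punched out and the unwounded skin scraped off, so the differences in shares given below cannot be told apart from the way of sampling. Fibroblasts made up 21.6% of the cells at 6 dpw (1796 cells) and 12.6% in unwounded skin (733 cells), a ratio of 1.71 (95% interval 1.57 to 1.87). Keratinocytes were 30.2% of the cells at 6 dpw and 37.6% in unwounded skin, a ratio of 0.804 (0.759 to 0.851). Mucous cells secrete the mucus layer of fish skin. The class named after them was 3.26% of the cells at 6 dpw and 5.98% in unwounded skin, a ratio of 0.545 (0.463 to 0.641). A clustering made without integration of the libraries named 68 cells at 6 dpw and 95 in unwounded skin mucous, against 271 and 347 here. The class thus also holds cells that were not named mucous there. T/NK lymphocytes were 14.2% at 6 dpw and 22.9% in unwounded skin, a ratio of 0.620 (0.572 to 0.671). For macrophages (6.24% at 6 dpw and 7.0% in unwounded skin) and neutrophils (0.878% and 0.948%) the intervals of the ratio included 1, at 0.782 to 1.02 and 0.644 to 1.34. These shares add up to the whole of each library, so a larger share of one class lowers the shares of the others. Clusters that could not be named held 11.0% of the cells at 6 dpw and 8.55% in unwounded skin.

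**Figure D1:**
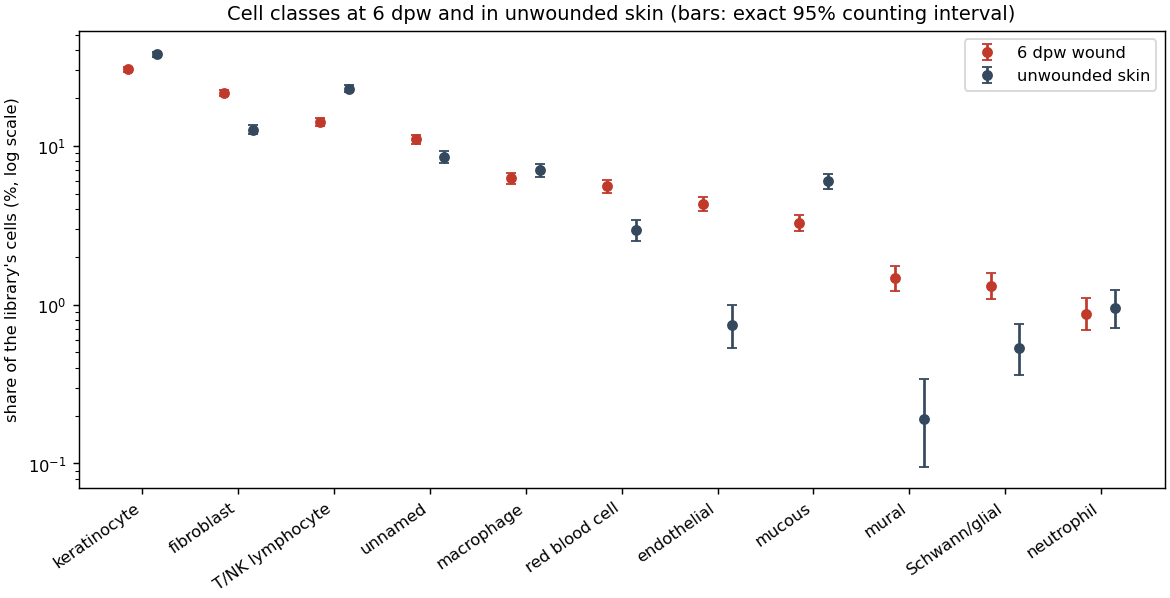
Share of each cell class among the cells of the 6 dpw wound library (red, left of each pair) and the unwounded skin library (dark blue), in percent on a log scale, with exact 95% intervals for counting error; 1 library per condition. Fibroblasts, red blood cells, endothelial, mural and Schwann/glial cells lie higher at 6 dpw, keratinocytes, T/NK lymphocytes and mucous cells lower, and the intervals of macrophages and neutrophils overlap.

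The classes with the largest ratios of shares were the endothelial and mural cells of vessels. Endothelial cells, which line vessels, were 4.29% of the cells at 6 dpw (357 cells) and 0.741% in unwounded skin (43 cells), a ratio of 5.79 (4.21 to 8.15). Mural cells, the contractile cells around vessels, were 1.47% at 6 dpw (122 cells) and 0.190% in unwounded skin (11 cells), a ratio of 7.74 (4.18 to 15.9). Schwann/glial cells were 1.31% and 0.534% of the cells, a ratio of 2.45 (1.63 to 3.78), which was 1.39 with at least 1000 UMIs per cell. Across unwounded skin and 2, 4 and 6 dpw the endothelial share was 0.741%, 3.93%, 5.95% and 4.29%, so the 6 dpw share lay between those of 2 and 4 dpw. The 3 classes held fewer than 50 unwounded cells each and were too small for counts of genes within them.

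In the whole tissue, 11 of 12 measured endothelial markers were at least 2-fold higher and none was lower, with a median ratio of 6.61. The vascular cadherin gene cdh5 was at 43.3 CPM at 6 dpw and 4.80 CPM in unwounded skin. The vascular endothelial growth factor receptor gene kdrl was at 23.1 and 4.11 CPM in the same order, and the fenestral diaphragm gene plvapb at 27.8 and 2.70 CPM. Of 30 measured genes of a list on angiogenic endothelium, 23 were higher and none was lower, with a median ratio of 4.3 beside 0.898 over all measured genes. This list included esm1, a gene of endothelial tip cells, with 14.5 CPM at 6 dpw and 0.531 CPM in unwounded skin, and cxcl12b, a chemokine gene, with 83.0 and 5.15 CPM. More cells of a type and more RNA per cell cannot be told apart in such whole-tissue values. In a recount each class was given its unwounded share of UMIs, and only the levels within classes were taken from 6 dpw. Then 6 of the 30 angiogenic genes were at least 2-fold higher, and kdrl had a ratio of 1.05 in place of 5.61. The unwounded values of endothelial and mural cells in this recount rest on only 43 and 11 cells.

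Fibroblasts at 6 dpw held most genes of the extracellular matrix above the unwounded level. Of 16 measured fibrillar and associated collagen genes, 12 were at least 2-fold higher within the fibroblast class and 1 was lower, with a median ratio of 3.61 beside 1.02 over all genes measured in fibroblasts. The type I collagen gene col1a2 was at 25936 CPM at 6 dpw and 7023 CPM in unwounded skin, a ratio of 3.69 (3.65 to 3.74), and col1a1a at 15337 and 4378 CPM, a ratio of 3.50. Some other fibrillar and fibril-associated collagens showed larger ratios than type I collagen, whereas the list median of 3.61 was near the ratio of col1a2. The type XI gene col11a1b had 965 CPM at 6 dpw and 96.4 CPM in unwounded skin, a ratio of 10.0 (9.11 to 11.0). The type II gene col2a1b had 714 and 61.5 CPM, a ratio of 11.6 (10.3 to 13.1), and the type XII gene col12a1a 2219 and 402 CPM, a ratio of 5.52. Only col14a1a, which encodes another fibril-associated collagen, was lower, with 9.82 CPM at 6 dpw and 53.6 CPM in unwounded skin, a ratio of 0.183 (0.147 to 0.227).

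Genes for the folding, modification and crosslinking of collagen were higher by smaller factors. Of 25 measured, 14 were at least 2-fold higher and none was lower, with a median ratio of 2.13. The prolyl isomerase gene ppib was at 2683 CPM at 6 dpw and 1050 CPM in unwounded skin, a ratio of 2.56 (2.48 to 2.63). The procollagen chaperone gene fkbp10b had a ratio of 2.92 (2.56 to 3.34) and the lysyl oxidase gene loxl2b one of 2.76 (2.50 to 3.07). Of 19 measured genes of basement membranes 12 were higher and none was lower, with a median ratio of 2.32, among them col18a1a with 240 CPM at 6 dpw and 25.5 CPM in unwounded skin.

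Among 30 measured genes of matricellular and provisional matrix proteins, 20 were higher and 4 were lower, with a median ratio of 3.0. The periostin gene postnb was at 6025 CPM at 6 dpw and 715 CPM in unwounded skin, a ratio of 8.43 (8.14 to 8.73). The thrombospondin gene thbs4b had 612 and 33.6 CPM, a ratio of 18.2 (15.5 to 21.5). The cartilage matrix genes comp and cilp had ratios of 12 (9.24 to 15.9) and 10.4 (9.11 to 11.8), and the tenascin gene tnc one of 6.49 (5.70 to 7.41). The 4 genes that were lower belong to the hyaluronan matrix and the microfibrils, but other genes of these groups were not lower. The link protein gene hapln1b had 15.2 CPM at 6 dpw and 80.4 CPM in unwounded skin, and the versican gene vcana 43.9 and 198 CPM, a ratio of 0.221 (0.199 to 0.246). The hyaluronan synthase gene has1 had a ratio of 0.362 (0.310 to 0.422) and the microfibril gene mfap5 one of 0.381 (0.360 to 0.403). With all cells thinned to the same number of UMIs, the link protein gene hapln1a was found in 6.24% of fibroblasts at 6 dpw and 1.91% in unwounded skin. The microfibril gene mfap2 was found in 17.1% and 4.64% in the same order. The versican gene vcanb was found in 6.18% and 4.91%, with overlapping intervals.

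The small leucine-rich proteoglycans, which bind collagen and set the spacing of its fibrils, split in both directions. Of 13 measured genes 7 were higher and 3 were lower. The osteoglycin gene ogna was at 580 CPM at 6 dpw and 17.8 CPM in unwounded skin, a ratio of 32.6 (26.2 to 41.1). The osteomodulin gene omd had 181 and 15.2 CPM, a ratio of 11.9 (9.38 to 15.4), with 36.2% of its unwounded UMIs in 1 cell. Lumican (lum) and decorin (dcn) had ratios of 3.44 (3.29 to 3.60) and 2.54 (2.44 to 2.65). The chondroadherin gene chad was at 9.68 CPM at 6 dpw and 77.7 CPM in unwounded skin, a ratio of 0.124 (0.101 to 0.152), and the biglycan gene bgna at 206 and 447 CPM, a ratio of 0.461 (0.436 to 0.489). The collagens, the matricellular genes and these proteoglycans thus each held genes more than 3-fold higher beside genes more than 2-fold lower.

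The time course shows which of these differences had begun to shrink. Over unwounded skin, 2, 4 and 6 dpw, col1a2 in fibroblasts was at 7023, 6199, 23508 and 25936 CPM, and postnb at 715, 916, 5986 and 6025 CPM. Both genes were near their 6 dpw level at 4 dpw. The fibronectin gene fn1b, part of the provisional matrix, was at 294, 1062, 4072 and 957 CPM, and the actin-binding gene tagln, a marker of contractile fibroblasts, at 115, 293, 1067 and 211 CPM. Both were highest at 4 dpw, and at 6 dpw fn1b was 3.25-fold (3.08 to 3.44) and tagln 1.84-fold (1.67 to 2.02) the unwounded level. Of 26 measured genes of the fibroblast state and myofibroblast list, which holds tagln, 4 were higher and 3 were lower. Over all genes measured in fibroblasts 11.0% were higher and 8.11% lower, so these counts were not far from those shares. The osteomodulin gene omd instead was at 15.2, 17.2, 42.1 and 181 CPM and was highest at 6 dpw, as was the tenomodulin gene tnmd with 22.6, 28.9, 33.8 and 141 CPM.

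Genes of scale formation and mineralization showed the opposite balance. Of 20 measured in fibroblasts, 3 were at least 2-fold higher and 10 were lower, with a median ratio of 0.580. The lower genes included regulators of bone-forming cells. The osterix gene sp7 was at 9.97 CPM at 6 dpw and 30.5 CPM in unwounded skin, a ratio of 0.327 (0.256 to 0.416). The homeobox genes dlx3b and dlx5a had ratios of 0.271 (0.243 to 0.302) and 0.305 (0.268 to 0.347). The osteopontin gene spp1 was at 53.2 and 378 CPM, a ratio of 0.141, with 36.6% of its unwounded UMIs in 1 cell. The osteocalcin gene bglap had 26.6 CPM at 6 dpw and 93.8 CPM in unwounded skin, a ratio of 0.284 (0.246 to 0.327), with 34.4% of its 6 dpw UMIs in 1 cell. The type X collagen gene col10a1b was at 1509 and 4195 CPM, a ratio of 0.360 (0.353 to 0.367), whereas its paralog col10a1a was at 6132 and 4390 CPM, a ratio of 1.40 (1.38 to 1.42). In a clustering made without integration of the libraries, the cluster led by col10a1a, ifitm5 and col10a1b held 365 of 8314 cells at 6 dpw. In unwounded skin it held 400 of 5802 cells. The other fibroblast clusters of that clustering held 684, 722, 131 and 10 cells at 6 dpw and 35, 87, 200 and 0 in unwounded skin. The cluster was thus a smaller part of the fibroblasts at 6 dpw, and its part in these values was not tested.

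The higher genes of the list encode enamel-type matrix proteins of the secretory calcium-binding phosphoprotein (SCPP) family and an osteocalcin-like protein. The gene enam was at 3657 CPM at 6 dpw and 992 CPM in unwounded skin, a ratio of 3.69 (3.57 to 3.80). The gene scpp7 was at 5062 and 333 CPM, a ratio of 15.2 (14.5 to 16), with 51.3% of its unwounded UMIs in 1 cell. The gene bglapl had 71.2 and 5.71 CPM, with 57.6% of its UMIs in 1 cell at 6 dpw. Another member of the family, scpp8, was among the genes with the smallest ratios in fibroblasts. It was at 3.2 CPM at 6 dpw and 67.4 CPM in unwounded skin (0.0475, 0.0338 to 0.0653). The list of neutrophil markers, which holds scpp8, summed to 127 CPM in fibroblasts at 6 dpw and 331 CPM in unwounded skin. The part of neutrophil RNA in the scpp8 ratio was not tested. Across unwounded skin and 2, 4 and 6 dpw, enam was at 992, 902, 212 and 3657 CPM and col10a1a at 4390, 1715, 287 and 6132 CPM, so both were below the unwounded level at 4 dpw and above it at 6 dpw.

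**Figure D2:**
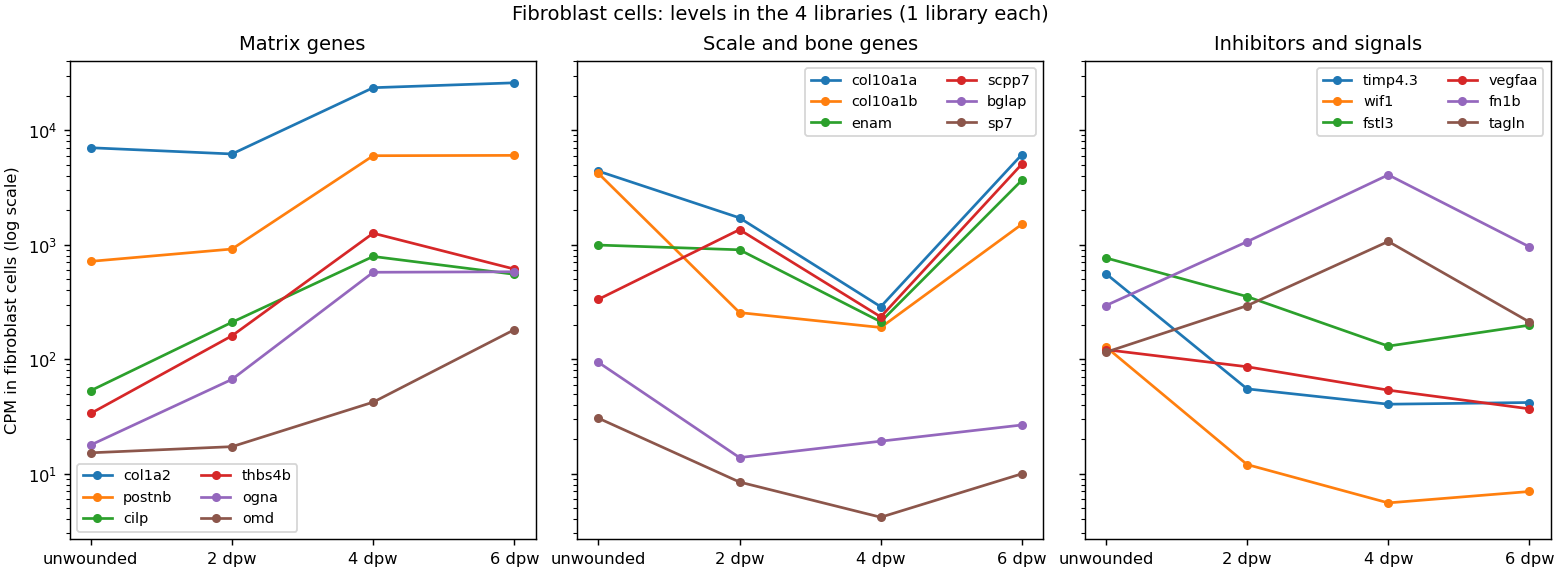
Level within fibroblasts in unwounded skin and at 2, 4 and 6 dpw (1 library each), in CPM on a log scale, for matrix genes (left), scale and bone genes (middle) and inhibitors and signals (right). Matrix genes are at 4 and 6 dpw above the unwounded level, col10a1a, enam and scpp7 are higher at 6 dpw than at 4 dpw, and timp4.3, wif1 and fstl3 lie below the unwounded level in all 3 wound libraries.

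Genes with small ratios in fibroblasts included wif1, timp4.1, timp4.3 and il13ra2. The gene wif1, which encodes an inhibitor that binds Wnt proteins, was at 6.98 CPM at 6 dpw and 128 CPM in unwounded skin, a ratio of 0.0547 (0.0436 to 0.0679). The metalloproteinase inhibitor genes timp4.1 and timp4.3 were at 3.2 and 41.8 CPM at 6 dpw, against 44.6 and 558 CPM in unwounded skin, with ratios of 0.0718 (0.0506 to 0.0999) and 0.0748 (0.0682 to 0.0819). The gene il13ra2, which encodes a decoy receptor for interleukin 13, had 3.13 and 56.7 CPM, a ratio of 0.0552 (0.0390 to 0.0765). The activin inhibitor gene fstl3 was at 198 and 766 CPM, a ratio of 0.259 (0.246 to 0.273). Over unwounded skin, 2, 4 and 6 dpw, wif1 was at 128, 12, 5.55 and 6.98 CPM and timp4.3 at 558, 55.0, 40.4 and 41.8 CPM. Both were thus far below the unwounded level in every wound library. Those were all punched and only the unwounded library was scraped, so this cannot be told apart from the way of sampling. The inhibitor gene timp2a did not follow timp4.1 and timp4.3 and was at 726 CPM at 6 dpw and 304 CPM in unwounded skin, a ratio of 2.39 (2.25 to 2.52).

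The counts by list were mixed for the other secreted signals. They stand beside 11.0% higher and 8.11% lower over all genes measured in fibroblasts. Of 24 measured genes of the transforming growth factor beta (TGFb), bone morphogenetic protein (BMP) and activin pathways, 1 was higher and 6 were lower, with a median ratio of 0.668. The lower genes included the ligand genes bmp2b and bmp6, with ratios of 0.303 (0.254 to 0.360) and 0.352 (0.306 to 0.405). Of 24 measured growth factor and receptor genes, 2 were higher and 9 were lower. The midkine gene mdka was at 1834 CPM at 6 dpw and 517 CPM in unwounded skin, a ratio of 3.55 (3.40 to 3.70), and the platelet-derived growth factor gene pdgfab at 64.3 and 12.3 CPM, a ratio of 5.23. The receptor gene fgfr3 was at 79.4 and 278 CPM, a ratio of 0.286 (0.264 to 0.310), and the vascular endothelial growth factor gene vegfaa at 36.8 and 121 CPM, a ratio of 0.303 (0.268 to 0.343). Of 21 measured matrix proteases and inhibitors, 6 were higher and 4 were lower. The urokinase gene plaub had 49.3 CPM at 6 dpw and 2.85 CPM in unwounded skin, a ratio of 17.3 (10.0 to 32.6). The gelatinase gene mmp9 had 46.7 and 135 CPM, a ratio of 0.345 (0.309 to 0.386). The neutrophil marker list, at 127 and 331 CPM in fibroblasts, also holds mmp9, and the part of neutrophil RNA in its ratio was not tested.

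Enzymes that break down signalling vitamins stood at both ends of the fibroblast ratios. The gene cyp26a1, which encodes the enzyme that degrades retinoic acid, was at 37.1 CPM at 6 dpw and 0.878 CPM in unwounded skin, a ratio of 42.2 (16.4 to 156). The gene cyp24a1, for the enzyme that degrades active vitamin D, was at 0.946 and 39.1 CPM, a ratio of 0.0242 (0.0126 to 0.0425), the smallest in the class among genes with no dominant cell. Other genes with the largest ratios were vwde, which encodes a secreted protein with von Willebrand factor D and EGF domains, with 451 CPM at 6 dpw and 17.8 CPM in unwounded skin (25.3, 20.3 to 31.9), the homeobox gene meox1 (25.5, 13.8 to 53.4) and the netrin gene ntn1b (25, 13.1 to 54.8).

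The clusters that make up the fibroblast class had different shares in the libraries. A cluster led by angptl7, vwde, cilp2, comp and thbs4b held 32.4% of the fibroblasts at 6 dpw and 18.3% in unwounded skin. A cluster led by vcana, clec19a and mgp held 4.79% and 14.9%, and one led by adh8a, c4b and clu 19.4% and 30.4%. With each cluster held at its unwounded share of the class, 13 of the 16 collagen genes were at least 2-fold higher, thbs4b had a ratio of 10.8, wif1 of 0.0690 and timp4.3 of 0.0827, whereas vcana, has1 and dcn had ratios of 0.505, 0.577 and 1.82. These values rest on the clusters made with integration of the libraries. In the clustering made without it, the cluster led by angptl7, vwde, cilp2 and thbs4b held 684 fibroblasts at 6 dpw and 35 in unwounded skin, and the ratios were not recomputed with those clusters held. The list of immediate early and dissociation stress genes, which respond to the enzymatic digestion of the tissue, summed to 28869 CPM in fibroblasts at 6 dpw and 45180 CPM in unwounded skin, with 3 of 35 higher and 6 lower, and its part in these differences was not tested. Scaling by the trimmed mean of M values (TMM) in place of UMI totals multiplied each fibroblast ratio by 1.16, a shift of 0.21 on the log2 scale, after which 13 of 16 collagen genes were higher and 8 of 20 scale genes lower.

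Keratinocytes had more genes below the unwounded level than above it, and those of cholesterol metabolism were among them. Of 27 measured genes of cholesterol synthesis none was at least 2-fold higher and 5 were lower, with a median ratio of 0.602 beside 0.898 over all genes measured in keratinocytes. The gene of its rate-limiting reductase, hmgcra, was at 122 CPM at 6 dpw and 263 CPM in unwounded skin, a ratio of 0.463 (0.445 to 0.483). The gene hsd17b7, of a later step, was at 342 and 835 CPM, a ratio of 0.409 (0.400 to 0.419). The mevalonate kinase gene mvk had a ratio of 0.281 (0.233 to 0.336) and the lanosterol synthase gene lss one of 0.418 (0.373 to 0.468). Across unwounded skin and 2, 4 and 6 dpw, hmgcra was at 263, 64.5, 49.5 and 122 CPM and hsd17b7 at 835, 186, 194 and 342 CPM, so the 6 dpw level lay between that of 4 dpw and that of unwounded skin. With TMM scaling 4 of the 27 genes were lower and hmgcra had a ratio of 0.514, and with every cell weighted equally lss had one of 0.567.

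Genes of enzymes that turn cholesterol into bile acids in liver were further from the unwounded level. The gene cyp7a1, for the rate-limiting enzyme of that pathway, was at 11.0 CPM in keratinocytes at 6 dpw and 90.1 CPM in unwounded skin, a ratio of 0.122 (0.108 to 0.138). It was also among the smallest ratios of the whole tissue, with 6.54 and 59.0 CPM. The genes cyp8b2 and hsd3b7 of the same pathway, chosen after their values were seen, were at 71.5 and 154 CPM at 6 dpw, against 291 and 364 CPM in unwounded skin.

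Structural genes of the epidermis were mostly within 2-fold, as were 93.3% of all genes measured in keratinocytes. Of 15 measured keratin genes 2 were higher and 2 were lower, with a median ratio of 0.959. These are larger shares than the 1.78% higher and 4.89% lower over all genes measured in the class. The gene krt96 was lower, with 199 CPM at 6 dpw and 421 CPM in unwounded skin, a ratio of 0.473 (0.458 to 0.488). The basal keratinocyte keratin krtt1c19e was at 194 CPM at 6 dpw and had a ratio of 5.02 (4.69 to 5.38), which was 1.59 without the 5% of cells with most UMIs in each library. Among 15 desmosome and adherens junction genes none was higher and 1 was lower, the plakophilin gene pkp2, with a ratio of 0.489 (0.463 to 0.515). Of 13 tight junction claudins none was higher and 1 was lower, cldnf, at 0.480 (0.417 to 0.551), and the list median was 0.711. Of 14 markers of basal keratinocytes 1 was higher and none was lower. With TMM scaling the ratios of krt96, pkp2 and cldnf were 0.524, 0.542 and 0.532, within 2-fold.

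Some of the genes induced by interferon were below the unwounded level. In keratinocytes 4 of 11 measured genes were at least 2-fold lower and none was higher, with a median ratio of 0.629. The interferon regulatory factor gene irf7 was at 43.5 CPM at 6 dpw and 97.0 CPM in unwounded skin, a ratio of 0.448 (0.418 to 0.479), and the antiviral gene rsad2 at 5.82 and 25.2 CPM, a ratio of 0.231 (0.194 to 0.274). In the whole tissue 8 of 20 genes of this list were lower and none was higher, and in fibroblasts 2 of 6 were lower. Without the 5% of cells with most UMIs, 2 of 9 were lower in keratinocytes, and irf7 had a ratio of 0.512.

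Few keratinocyte genes were far above the unwounded level. The gene jac4, a leading gene of keratinocyte clusters, was at 636 CPM at 6 dpw and 34.8 CPM in unwounded skin, a ratio of 18.2 (17.1 to 19.5), with 22.3% of its unwounded UMIs in 1 cell. Over unwounded skin, 2, 4 and 6 dpw it was at 34.8, 989, 1669 and 636 CPM, so it had dropped from its 4 dpw level but not to that of unwounded skin. In the clustering without integration, 61.8% of the jac4 UMIs of the 6 dpw library lay in 1 keratinocyte cluster, which held 188 cells at 6 dpw and 14 in unwounded skin. The interleukin gene il11b was at 74.9 and 34.8 CPM, a ratio of 2.15 (1.99 to 2.33), and was at 35.9 and 39.7 CPM at 2 and 4 dpw. The SCPP gene scpp7, described above in fibroblasts, was at 3970 CPM in keratinocytes at 6 dpw and 895 CPM in unwounded skin, a ratio of 4.44 (4.37 to 4.50). At 6 dpw scpp7 was also at 3216 CPM in mucous cells and 233 CPM in T/NK lymphocytes, against 19 and 17.6 CPM in unwounded skin.

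**Figure D3:**
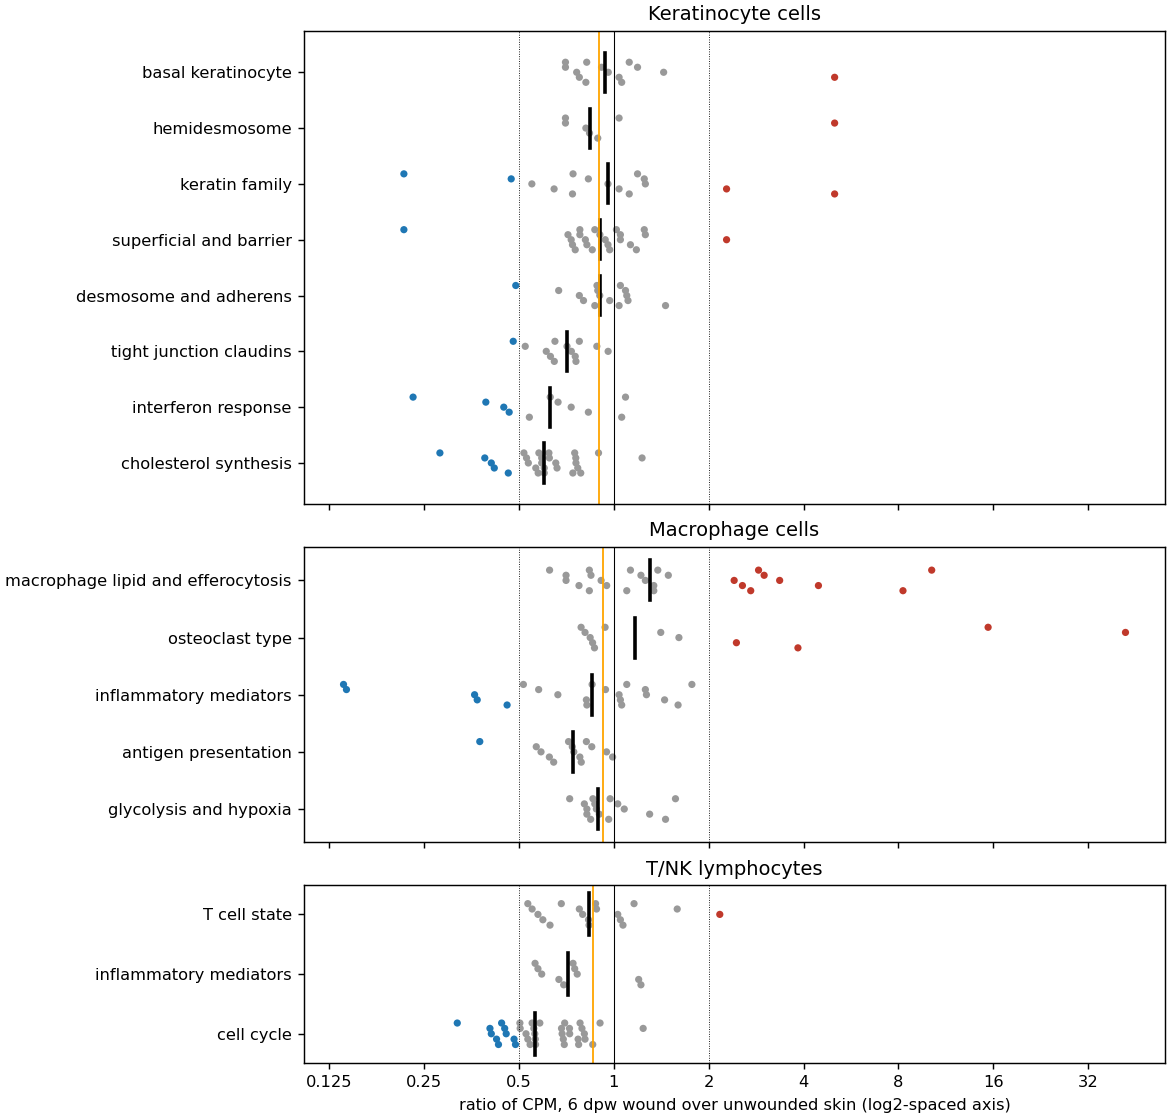
Ratio of CPM, 6 dpw wound over unwounded skin, for each measured gene of selected lists within keratinocytes, macrophages and T/NK lymphocytes on a log2-spaced axis; each point is 1 gene, red at least 2-fold higher, blue at least 2-fold lower. Black bars are list medians and orange lines the median of all genes measured in the class (0.898, 0.926 and 0.859). Cholesterol synthesis and interferon response in keratinocytes and cell cycle in T/NK lymphocytes have medians of 0.602, 0.629 and 0.564.

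Macrophages at 6 dpw were close to their unwounded share but differed in lipid and inflammatory genes. Of 26 measured genes of lipid handling and efferocytosis, the uptake of dead cells, 9 were at least 2-fold higher and none was lower, and the median ratio was 1.3 beside 0.926 over all genes measured in macrophages. The fatty acid-binding gene fabp11a was at 2499 CPM at 6 dpw and 560 CPM in unwounded skin, a ratio of 4.46 (4.23 to 4.70). The apolipoprotein genes apoeb and apoc1 were at 1871 and 480 CPM at 6 dpw, against 557 and 167 CPM in unwounded skin. The lipid droplet gene plin2 had a ratio of 3.0 (2.62 to 3.44), the lipase gene lpl one of 2.72 (2.14 to 3.46), and gpnmb, a gene of phagocytes laden with lipid or debris, was at 108 and 13.1 CPM, with 47.6% of its 42 unwounded UMIs in 1 cell. The count was 9 of 26 in all 12 alternatives that recounted this list, including that without the cell with most UMIs of each gene. Across unwounded skin and 2, 4 and 6 dpw, fabp11a was at 560, 18098, 1938 and 2499 CPM, so most of its 2 dpw excess had gone. Markers of other classes were also higher in the macrophage class. Those of fibroblasts were at 1769 CPM at 6 dpw and 81.8 CPM in unwounded skin, and those of muscle at 379 and 0.622 CPM. Those of adipocytes were at 2819 and 657 CPM, but that list holds fabp11a and lpl, so its sum includes their values given above. Of the fabp11a UMIs of the whole 6 dpw library 54.3% lay in endothelial cells. The cluster led by mrc1b, apoc1 and gda held 42.6% of the macrophages at 6 dpw and 31.8% in unwounded skin, one with cxcl19 among its leading genes 14.1% and 22.4%, and with the clusters held at their unwounded shares fabp11a had a ratio of 3.83. The part of these other markers in the lipid values was not tested.

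Inflammatory mediators of macrophages were within 2-fold of the unwounded level or below it. Of 21 measured none was at least 2-fold higher and 5 were lower, where 3.29% of all genes measured in macrophages were higher and 4.05% lower. The interleukin gene il1b was at 77.4 CPM at 6 dpw and 210 CPM in unwounded skin, a ratio of 0.369 (0.316 to 0.429), after 405 CPM at 2 dpw and 192 CPM at 4 dpw. The granulocyte growth factor gene csf3b was at 17.2 and 124 CPM, a ratio of 0.139 (0.102 to 0.186), and the chemokine gene ccl20a.3 at 126 and 349 CPM, with 33.2% of its 6 dpw UMIs in 1 cell. The ratio of ccl20a.3 was 1.13 with the macrophage class of the clustering without integration. The chemokine gene cxcl19 was between the limits, at 7788 and 4398 CPM, a ratio of 1.77 (1.73 to 1.81). Of 14 measured antigen presentation genes none was higher and 1 was lower, the major histocompatibility complex class II gene mhc2dab, with 444 CPM at 6 dpw and 1180 CPM in unwounded skin, a ratio of 0.376 (0.353 to 0.401).

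Some genes of the T/NK marker list were also lower in the macrophage class. Among them, cd4-1 was at 11.8 CPM at 6 dpw and 73.4 CPM in unwounded skin. In the macrophage cluster with cxcl19 among its leading genes, 3 markers of that list stood out. This cluster held 14.1% of the macrophages at 6 dpw and 22.4% in unwounded skin. Whether these transcripts came from macrophages or from lymphocytes was not tested. The 13 markers of that list summed to 690 and 1031 CPM in the macrophage class, and their part in the lower values of other genes was not tested. The median macrophage had 4755 UMIs at 6 dpw and 7912 in unwounded skin.

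Neutrophils were few, 73 cells at 6 dpw and 55 in unwounded skin. Their myeloperoxidase gene mpx, of the azurophil granules, was at 2305 CPM at 6 dpw and 7180 CPM in unwounded skin, a ratio of 0.321 (0.288 to 0.357), and it was at 2251 and 2307 CPM at 2 and 4 dpw. The carboxypeptidase gene cpa5 and the leukotriene hydrolase gene lta4h had ratios of 0.374 (0.313 to 0.445) and 0.428 (0.307 to 0.587). The chemokine receptor gene cxcr4b, which holds neutrophils in tissue, was at 2083 and 479 CPM, a ratio of 4.35 (3.53 to 5.39), and the tissue factor gene f3b at 1665 and 246 CPM, a ratio of 6.78 (5.13 to 9.09). The immediate early gene egr1 had a ratio of 7.87 (4.88 to 13.3), with 35% of its 20 unwounded UMIs in 1 cell. In this class 4 of 8 measured immediate early and stress genes were higher, beside 11.2% of all measured genes. TMM scaling multiplied neutrophil ratios by 0.829. T/NK markers summed to 2093 CPM in this class at 6 dpw and 1298 CPM in unwounded skin, and their part in these values was not tested.

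Some genes of cell division were below the unwounded level in T/NK lymphocytes. Of 37 measured cell cycle genes 10 were at least 2-fold lower and none was higher, with a median ratio of 0.564 beside 0.859 over all genes measured in the class. The lower genes act in DNA replication or in the supply of its nucleotides. The thymidylate synthase gene tyms was at 12.1 CPM at 6 dpw and 37.9 CPM in unwounded skin, a ratio of 0.319 (0.217 to 0.458), and the replication helicase gene mcm6 was at 15.4 and 37.9 CPM, a ratio of 0.405 (0.287 to 0.563). The cluster of dividing lymphocytes held 6.20% of the class at 6 dpw and 8.82% in unwounded skin, and with the clusters held at their unwounded shares 2 of the 37 cell cycle genes were lower. The lineage markers themselves were within 2-fold in all 11 measured cases, with cd8a at 182 and 290 CPM. They also served to name the class, so this was partly set in advance, and 97.1% of all genes measured in it were within 2-fold. Among the genes that were higher was the metallothionein gene mt2, with 3226 CPM at 6 dpw and 929 CPM in unwounded skin (3.47, 3.35 to 3.60). In the whole tissue, the type 2 cytokine gene il13 was at 14.4 and 2.54 CPM, a ratio of 5.66 (4.64 to 6.98), with 22.7% of its unwounded UMIs in 1 cell, and 89.0% of its 6 dpw UMIs lay in clusters that could not be named.

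In the mucous class, the gel-forming mucin gene muc5.1 was at 550 CPM at 6 dpw and 1289 CPM in unwounded skin, a ratio of 0.427 (0.396 to 0.460), and muc5.2 at 4594 and 6729 CPM, a ratio of 0.683 (0.664 to 0.702). With the classes of the clustering without integration muc5.1 had a ratio of 0.616. Genes of retinoid uptake and synthesis were among those with the largest ratios. The retinaldehyde dehydrogenase gene aldh1a3 was at 435 and 61.3 CPM, a ratio of 7.10 (5.91 to 8.57), the retinol-binding gene rbp5 at 166 and 23.4 CPM, and the retinol transporter gene stra6 at 115 and 19.9 CPM. They came from few cells, since 95.9% of the aldh1a3 UMIs of the 6 dpw library lay in 1 cluster of that clustering, which could not be named. That cluster held 0.529% of the cells at 6 dpw and 0.190% in unwounded skin. The mucous class of that clustering held 68 cells at 6 dpw and 95 in unwounded skin. In it 5 genes were higher and 19 were lower, of which 1 and 7 were called in both ways.

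Red blood cells were 5.54% of the cells at 6 dpw and 2.93% in unwounded skin, a ratio of 1.89 (1.58 to 2.27). Of their own markers, which also served to name the class, 10 of 10 measured, haemoglobins included, were within 2-fold inside it. The same held for 86.3% of all genes measured in the class. Among the genes counted as higher in red blood cells were the muscle genes actc1b, with 202 UMIs at 6 dpw and 0 in unwounded skin (at least 23.3-fold higher against a floor of 3 UMIs), and pvalb2, with 101 and 0 UMIs.

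Transcripts of skeletal muscle, which lies beneath the skin, had the largest ratios of the whole tissue. All 14 measured muscle markers were at least 2-fold higher at 6 dpw, and the 16 markers of the list summed to 645 CPM at 6 dpw and 6.07 CPM in unwounded skin. The cardiac-type actin gene actc1b was at 167 and 0.877 CPM, a ratio of 191 (139 to 270), and the fast myosin light chain gene mylpfa at 74.0 and 0.623 CPM, a ratio of 119 (81.5 to 180). The parvalbumin gene pvalb1 had 4725 UMIs at 6 dpw and 0 in unwounded skin, at least 1199-fold higher. Over unwounded skin, 2, 4 and 6 dpw, actc1b was at 0.877, 4.50, 103 and 167 CPM and pvalb1 at 0, 0.794, 2.31 and 83.1 CPM, so both were higher in each later library. At 6 dpw 73.9% of the actc1b UMIs were in unnamed clusters, with 71.1% in 1 of them, a cluster of low UMI counts in which 7 muscle markers stood out. In the clustering without integration, 75.5% of them lay in a muscle cluster, in which 15 of the 16 markers stood out and which held 77 cells at 6 dpw and 1 in unwounded skin.

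Muscle transcripts were also found in cells of every named class. With each cell thinned to 500 UMIs, a muscle marker was found in 10.5% of keratinocytes, 12.6% of fibroblasts, 23.3% of T/NK lymphocytes and 39.5% of red blood cells at 6 dpw, against 0.0916%, 0.819%, 0.226% and 0% in unwounded skin (0 of 170 red blood cells, with an exact upper limit of 2.15%). Whether these transcripts were free RNA or came from cells joined with muscle material was not tested. Without the 2071 cells at 6 dpw and 8 in unwounded skin that had at least 2 muscle markers, 3 of the 10 red blood cell genes were higher, while the fibroblast collagen count was 11 of 15.

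**Figure D4:**
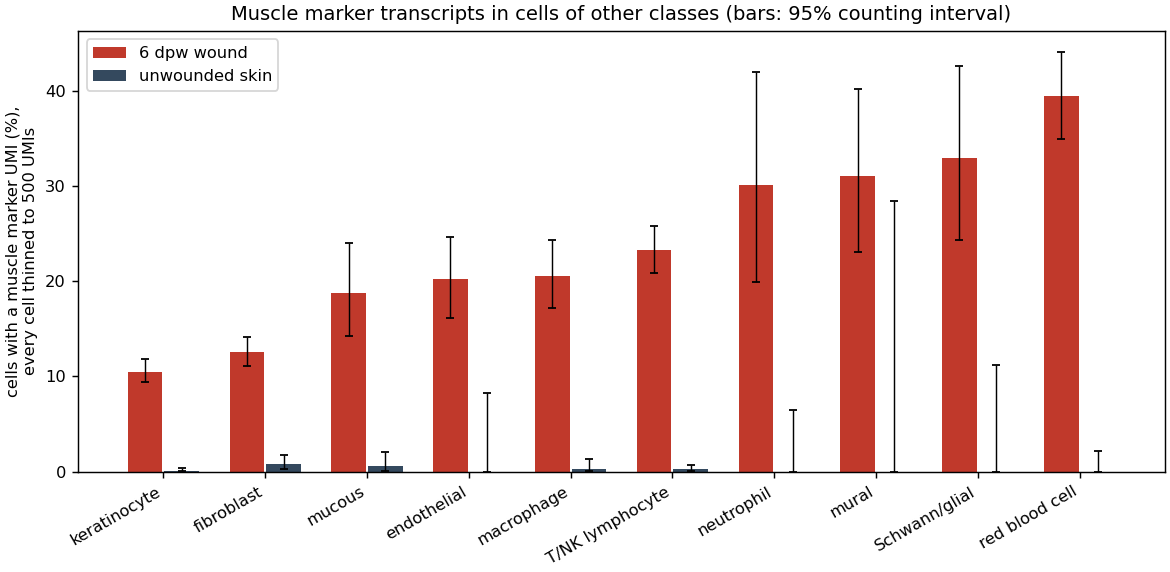
Share of cells of each class with at least 1 UMI of a muscle marker after every cell was thinned to 500 UMIs, in percent, in the 6 dpw wound (red, left) and unwounded skin (dark blue), with exact 95% intervals for counting error. Shares at 6 dpw run from 10.5% in keratinocytes to 39.5% in red blood cells, and those in unwounded skin do not exceed 0.819%.

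How much of the whole-tissue difference goes with the makeup of the tissue was described by holding one part fixed. With each class at its unwounded share of UMIs and its 6 dpw levels, 468 genes were at least 2-fold higher and 355 lower, in place of 1066 and 674, and 440 and 250 of these were called in both ways. The type I collagen gene col1a2 had a ratio of 7.99 (7.91 to 8.08) in the whole tissue, 3.66 with shares held at unwounded skin, and 2.18 with levels held at unwounded skin and shares of 6 dpw. For the endothelial gene cdh5 the same values were 9.02, 1.66 and 6.02, and for the keratinocyte gene cyp7a1 0.111, 0.127 and 0.878. Of the cdh5 UMIs of the 6 dpw library 74.4% lay in endothelial cells and 21.4% in unnamed clusters. The unwounded values of endothelial cells rest on only 43 cells.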

How the data were processed

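The authors made the deposited count matrices, of whole-number UMI counts per gene and cell barcode, from droplet libraries of cells dissociated with Liberase; the submitters' notes name GRCz11 and Seurat 4.3.0. The deposited counts are not normalized, and cells were named here, so class names may differ from those of the study. The 4 libraries were integrated with Seurat 5.3.0 and sctransform 0.4.2, with 3022 variable genes after 478 listed genes had been left out, 17 dimensions and a resolution of 1, which gave 38 clusters. A cluster was named when at least 3 markers of a class were found in at least 10% of its cells and at least 2-fold above the rest. It stayed unnamed at a tie, when leading genes of another class outnumbered its own, or at low UMI counts without a leading marker. A cluster with 12 endothelial and 9 mural markers, of 56 cells at 6 dpw and 11 in unwounded skin, was thus left unnamed. No doublet caller was run, and 1 alternative leaves out the 5% of cells with most UMIs. UMIs were summed over each library and class with Python 3.11.15, and intervals are exact at 95%, conditional on the summed UMIs for ratios and Clopper-Pearson for shares. They cover counting error only. A floor of 3 UMIs stands in for any count under 3 UMIs in ratios.

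Genes were named by a rule: the 15 largest and 15 smallest ratios of the whole tissue, the 8 largest and 8 smallest of each class, and in each list the members past 2-fold with most UMIs, at most 4 in each direction, with members of lists described as families. Mitochondrial and ribosomal protein genes, and genes with over 20% of their UMIs in 1 cell of the library where they are higher, were left out of the ranks. The members, the gene lists and this rule were chosen with earlier results of these data known. Alternatives changed the limits on cells, the clustering, the naming, the scaling (TMM from edgeR 4.0.16), the weight of cells, the minimum of UMIs and the cells left out. In counts simulated from these libraries, all of 200 genes changed 4-fold were called. Of the intervals, 95.4% in the whole tissue (12117 genes) and 96.2% in fibroblasts (4021 genes) held the true ratio. These counts were drawn with counting error alone, as the intervals assume, so this outcome was set by the design. It checks the calculation only and covers no spread between cells or fish.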

Additional observations from a re-analysis of the deposited data

Results flagged for a closer look

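At least 2-fold higher levels in 1 class and at least 2-fold lower levels in another were found for 28 pairs of classes in 25 genes. Of these, 2 genes had both intervals past 2-fold and at most 20% of their UMIs in 1 cell, in each class in the library where the gene was higher. The chemokine gene ccl19a.1 had a ratio of 3.97 in fibroblasts (237 CPM at 6 dpw and 59.7 CPM in unwounded skin) and of 0.267 in keratinocytes (20.2 and 75.4 CPM), where 35% of its 6 dpw UMIs lay in 1 cell. The transporter gene slc43a3b had a ratio of 2.28 in macrophages (883 CPM at 6 dpw and 388 CPM in unwounded skin) and of 0.284 in fibroblasts (22.5 and 79.0 CPM). Macrophage markers in the fibroblast class summed to 236 CPM at 6 dpw and 625 CPM in unwounded skin, slc43a3b is a leading gene of a macrophage cluster, and their part in its fibroblast ratio was not tested. With the clusters of macrophages at their unwounded shares, slc43a3b had a ratio of 1.99. With 1 library per condition, the difference between classes was not tested for either gene.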

How the results depend on the processing

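No paired analysis was possible because each condition is 1 library, and no replicate could be left out. Of 214 recounted numbers of differing genes, 158 were within 1.5 times the value given and 56 were not. With a minimum of 10 UMIs in place of 100, the genes higher and lower were 2067 and 1418 in the whole tissue, 145 and 366 in keratinocytes, 357 and 468 in mucous cells, 778 and 1012 in fibroblasts, 307 and 555 in macrophages, 410 and 169 in neutrophils, 131 and 574 in T/NK lymphocytes, and 71 and 60 in red blood cells. With a minimum of 1 UMI they were 2189 and 1760, 176 and 455, 696 and 522, 778 and 1699, 430 and 680, 779 and 232, 313 and 612, and 71 and 489 in the same order of classes. At such low counts the floor of 3 UMIs and unequal UMI totals set the direction of part of these calls. Fibroblasts had 13745400 UMIs at 6 dpw and 4554140 in unwounded skin. A gene just over the floor at 6 dpw and absent from unwounded skin thus counts as lower there. TMM scaling shifted ratios on the log2 scale by 0.14 in the whole tissue, 0.15 in keratinocytes and T/NK lymphocytes, 0.21 in fibroblasts, 0.30 in red blood cells and -0.27 in neutrophils, and gave 102 lower genes in keratinocytes, 36 in neutrophils and 46 in T/NK lymphocytes. Leaving haemoglobin, ribosomal protein and mitochondrial genes out of the totals also gave 46 lower genes in T/NK lymphocytes. With the classes of the clustering without integration, 5 genes were higher and 19 lower in mucous cells, 49 higher in macrophages, 5 higher in T/NK lymphocytes, and 2 higher and 1 lower in red blood cells, and ccl20a.3 in macrophages had a ratio of 1.13. With classes from the marker count of single cells, 3 genes were higher and 44 lower in T/NK lymphocytes and 14 lower in red blood cells. The ratios of class shares were then 0.749 for keratinocytes, 2.27 for fibroblasts, 0.530 for T/NK lymphocytes and 1.40 for mucous cells, which rests on 2 cells at 6 dpw and 1 in unwounded skin. In red blood cells equal weight for every cell gave 2 lower genes, and leaving out the cell with most UMIs of each gene gave 5 higher and 1 lower. The share ratio of macrophages was 1.27 in a clustering without the differing genes, that of endothelial cells 8.26 with a mitochondrial limit of 10%, and that of Schwann/glial cells 1.39 with at least 1000 UMIs per cell.

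The alternatives chosen after seeing the data gave 468 higher and 355 lower genes in the whole tissue with class shares as in unwounded skin, 36 lower genes in T/NK lymphocytes with cluster shares as in unwounded skin, and 3 higher genes in red blood cells without cells with at least 2 muscle markers. Class cells whose own marker count gives the same class had 4 higher and 40 lower genes in T/NK lymphocytes and 4 higher and 0 lower in red blood cells. The cause of these shifts was not tested, apart from the minimum of UMIs. That minimum changes how many genes are counted and, with the floor, the direction in which genes of low counts can be called. Of 1385 recomputed ratios of named genes, 970 lay within the counting interval of the value given, 414 lay outside it and 1 changed direction.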
